A study of Homo sapiens with 12 samples.

Results

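The baseline transcriptome of A375 melanoma cells was read from the 3 libraries treated for 24 h with DMSO, the solvent in which the study's inhibitors were given. These are 3 of the 12 libraries of the series, and they were taken by their treatment label alone. The other 9 libraries are 3 each of cells given 1 µM XL413, an inhibitor of the CDC7 kinase, cells given 1 µM OF1, an inhibitor of the BRPF1, BRPF2 and BRPF3 bromodomains, and cells given both (the combination), for the same 24 h. All 4 groups are the same established human line, grown in DMEM with fetal bovine serum, and no library of cells without solvent was analysed here. Poly(A) RNA was sequenced after a dUTP second strand, so transcripts without a poly(A) tail are under-represented. The libraries of a group are called biological replicates in the labels, with no word on separate cultures, so the p-values here cover only the spread seen among these libraries, which may be technical.

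A375 is a cutaneous melanoma line that makes little or no pigment and carries an activating BRAF mutation, which keeps the RAF, MEK and ERK kinase cascade switched on. Melanocytes come from the neural crest under the transcription factors SOX10, PAX3 and MITF, and MITF activates the genes of the melanosome, the organelle in which tyrosinase and its relatives make melanin. Melanoma lines are known to range between a pigmented state with high MITF and a dedifferentiated, invasive state with high AXL.

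Each DMSO library held 33355678 to 33844765 counts, so a count of 0 allows a level of up to 0.0880 to 0.0899 counts per 1000000 (CPM) by counting error alone. A gene is called on here at 1 CPM or more in each of the 3 libraries, off at 3 counts or fewer in each, and trace between these limits. Of the 26475 entries 12973 were on (49.0%), 3972 were trace and 9530 were off, of which 6881 had no count in any of the 3. Of 18932 protein-coding entries 12109 were on (64.0%) and 4092 were off. The list members next to the limits were the muscle genes ACTA1 and MYH2, on with a lowest library of 1.08 CPM each, and TNNT3 and MYOD1, not on with 0.959 and 0.998 CPM. LGR5 and FLT4, with at most 4 counts in a library, were trace, and TRPM1 and CD3D, with at most 3, were off.

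Protein synthesis took the largest share of the counts. The 79 cytosolic ribosomal protein genes, all on, held 9.55% ± 0.274 of all counts (SD, n = 3), with 9.87%, 9.36% and 9.43% in DMSO replicates 1, 2 and 3. The 59 translation factor entries held 3.55% ± 0.0116, chaperones 2.93% ± 0.00152, splicing and RNA-binding factors 2.80% ± 0.00826, the actin cytoskeleton 2.301% ± 0.0109 and the 20 genes of glycolysis 2.21% ± 0.0313. DMSO replicate 1 was the highest of the 3 in ribosomal proteins, and the other classes named here differed by less between libraries. Ribosomal protein messages are short, so their share of counts per kilobase of transcript was larger, at 21.8% ± 0.490.

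**Figure D1:**
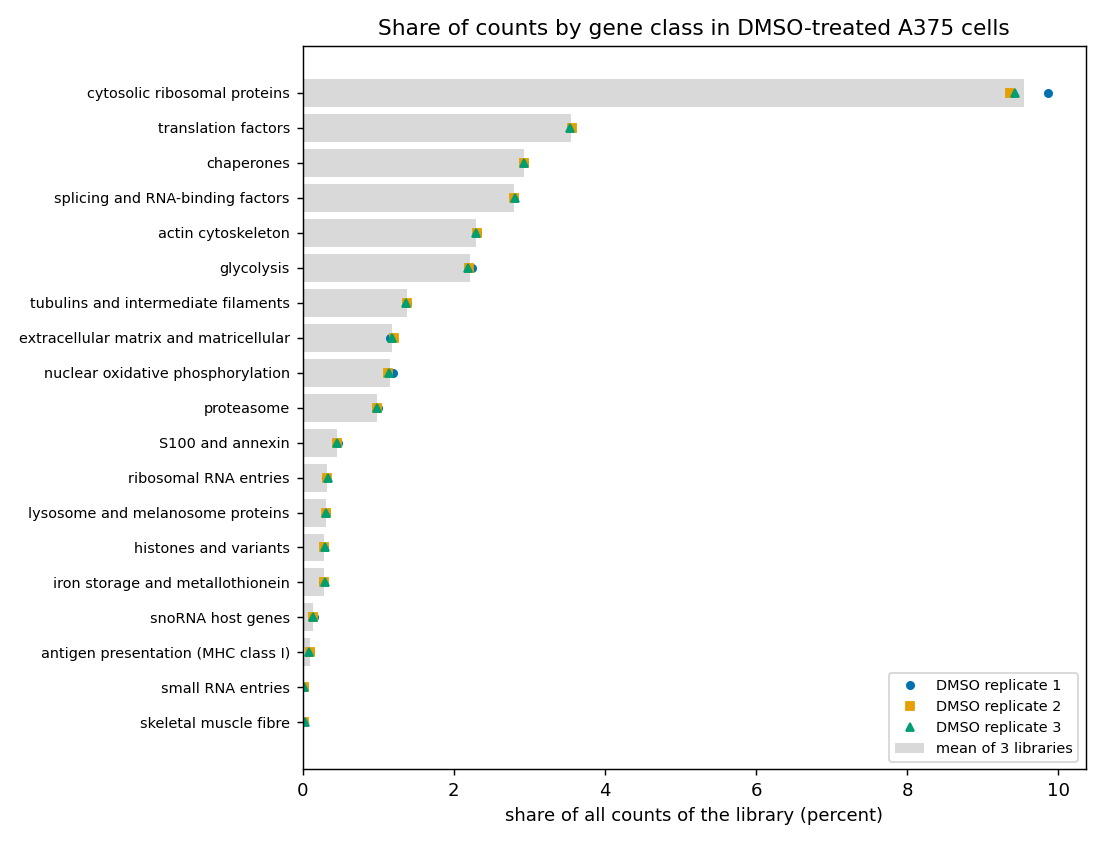
Share of all counts of a library (percent, linear axis from 0) held by each gene class. Bars are means of the 3 DMSO libraries and points are the libraries. Ribosomal proteins stand apart at 9.55%, and their point for replicate 1 (9.87%) lies right of those for replicates 2 (9.36%) and 3 (9.43%).

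The counts were spread over many genes. The largest entry held 1.05% ± 0.0108 of the counts, the largest 10 held 4.57% ± 0.0332, the largest 100 held 18.9% ± 0.145 and the largest 1000 held 52.3% ± 0.232. It took 869, 889 and 887 genes to reach 50% of the counts of replicates 1, 2 and 3. EEF1A1, the elongation factor that brings aminoacyl-tRNA to the ribosome, had 10626, 10481 and 10367 CPM, and GAPDH of glycolysis had 6884, 6557 and 6550 CPM. In both genes replicate 1 was the highest, by a few percent.

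The 20 entries of largest mean CPM came mostly from protein synthesis, glycolysis, chaperones, RNA binding and the cytoskeleton. After EEF1A1 and GAPDH came the glycolytic enzymes ENO1 (4323 ± 59.6 CPM) and PKM (3469 ± 26.3 CPM), and the chaperones HSP90AA1 (3471 ± 22.4 CPM), HSP90AB1 (3341 ± 25.5 CPM) and HSPA8 (2963 ± 20.5 CPM). The ribosomal protein genes among them were RPL13A (3972 ± 99.9 CPM), RPL8, RPLP0, RPS2 and RPS3, joined by the elongation factor EEF2 (2944 ± 37.8 CPM). NPM1, a nucleolar protein of ribosome assembly, had 3655 ± 44.9 CPM, and HNRNPA1 and HNRNPA2B1, which bind pre-mRNA, had 2890 ± 45.5 and 2463 ± 35.4 CPM. The cytoskeleton was represented by ACTB (3157 ± 29.96 CPM), ACTG1 (2831 ± 43.7 CPM) and VIM (2839 ± 25.0 CPM), the intermediate filament of mesenchymal cells. RNA28S5, a ribosomal RNA that has no poly(A) tail, had 2437, 2519 and 2567 CPM, and all 20 ribosomal RNA entries together held 0.322% ± 0.0108 of the counts.

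Ranked per kilobase of transcript, GAPDH led with 4943 CPM per kilobase, ahead of EEF1A1 with 4555, and the other 8 of the first 10 were ribosomal protein genes, RPL13A, RPS2, RPL8, RPS27, RPS21 and RPS16 among them, at 2725 to 3363 CPM per kilobase. RPS2 was the ribosomal protein gene with the widest spread, with 2523, 2889 and 3195 CPM. In RPS2 replicate 1 was the lowest and replicate 3 the highest, unlike most of its class. RPS2 has processed copies elsewhere in the genome that can share its reads, so its level is uncertain.

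Many messages of the translation machinery begin with a 5′ terminal oligopyrimidine tract, a C at the transcription start followed by pyrimidines, through which mTOR controls their translation. RefSeq start sites (GRCh38.p14) were matched for 63 of the 79 ribosomal protein genes. In 43 of the 63 (68.3%) the start is a C followed by at least 4 bases that are each C or T, against 11 of 46 translation factor genes (23.9%) and 4.51% of all 17309 matched promoters. The 7 windows here, of 30 bases before and 20 after the start, are of genes with high counts that were picked by name, not by rank. They are examples and do not stand for the shares given above. Capitals mark the C and the C or T run that follows it, and GAPDH and VIM, without capitals, do not begin this way. The windows lie at chr6:73521013-73521062 (EEF1A1, minus strand), chr19:49487578-49487627 (RPL13A, plus strand), chr12:120201092-120201141 (RPLP0, minus strand), chr19:3985444-3985493 (EEF2, minus strand), chr9:19380217-19380266 (RPS6, minus strand), chr12:6535234-6535283 (GAPDH, plus strand) and chr10:17228211-17228260 (VIM, plus strand). They are RefSeq reference letters, read 5′ to 3′ on the strand of the gene.
EEF1A1: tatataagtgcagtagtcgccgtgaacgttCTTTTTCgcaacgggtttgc
RPL13A: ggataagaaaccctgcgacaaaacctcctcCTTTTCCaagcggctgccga
RPLP0: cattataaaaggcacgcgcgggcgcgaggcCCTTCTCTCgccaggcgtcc
EEF2: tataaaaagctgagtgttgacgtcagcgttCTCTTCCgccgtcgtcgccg
RPS6: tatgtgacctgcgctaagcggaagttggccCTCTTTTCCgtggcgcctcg
GAPDH: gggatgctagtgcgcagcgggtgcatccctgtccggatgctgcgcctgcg
VIM: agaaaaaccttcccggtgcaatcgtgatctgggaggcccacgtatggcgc
The marked run was 7 bases long in EEF1A1, RPL13A and EEF2 and 9 bases in RPLP0 and RPS6.

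Genes that were on and genes that were off had different promoter letters. The ratio of observed to expected CG pairs in the 300 promoter bases (250 before and 50 after the start) had a median of 0.845 in 10014 protein-coding genes that were on, 0.572 in 2027 trace genes and 0.279 in 3116 genes that were off. A ratio of at least 0.6, a usual limit for a CpG island, was found in 83.9% of on, 48.4% of trace and 25.1% of off promoters. The letters TATAAA on the gene's strand, 45 to 16 bases before the start, were found in 1.58%, 5.28% and 9.44% of them. These are descriptions of the reference sequence, and methylation or factor binding in A375 was not measured.

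The lineage markers showed a neural crest cell with the melanocyte regulators on and the pigment enzyme genes at trace or off. Of 29 melanocyte and pigment genes 16 were on, 9 trace and 4 off. SOX10 had 322, 352 and 357 CPM, with replicate 1 somewhat lower than the other 2. CSPG4, the melanoma chondroitin sulfate proteoglycan, had 364, 366 and 368 CPM, MCAM, an adhesion molecule of melanoma, had 274 ± 2.29 CPM, and ERBB3, a receptor tyrosine kinase of the neural crest, had 201 ± 2.49 CPM. MITF had 42.8, 43.1 and 44.4 CPM, with no library standing apart. MIA, a secreted melanoma marker, had 78.3 ± 1.35 CPM, GPNMB 46.7 ± 1.22 CPM, S100B 22.7 ± 1.14 CPM and PAX3 13.5 ± 1.13 CPM.

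The pigment enzymes and several melanosome proteins of the list were at trace or off. PMEL, which forms the fibrils on which melanin is laid down, had 0.570, 0.499 and 0.508 CPM, or 19, 17 and 17 counts. TYRP1 had 0.0899, 0.264 and 0.359 CPM, MLANA had 0.150, 0 and 0.120 CPM, and DCT had 0.120, 0.0587 and 0.0896 CPM. TYR, the enzyme that starts melanin synthesis, had no count in any library, which allows up to 0.0899 CPM, and the transporter ABCB5 had none either. TRPM1 and KIT, the receptor that melanocyte precursors need, were also off. OCA2, SLC45A2, GPR143 and SLC24A5 were trace at 0.0793 to 0.752 CPM, whereas MC1R, the melanocortin receptor, and EDNRB, the endothelin receptor, were on at 12.7 ± 0.859 and 12.7 ± 0.675 CPM. The label of melanoma was met by SOX10, CSPG4, MCAM, MIA and S100B, while of its defining pigment enzymes TYR was not detected and TYRP1 and DCT were at trace.

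The letters CATGTG, which MITF is known to bind, were looked for on both strands of the 300-base promoters, which were available for 21 of the 29 genes. They were present in 10 of the 21 (47.6%), against 9.13% of all 17309 promoters. Among the list's genes that were on, 3 of 11 held them, and among those trace or off, 7 of 10 did. The letters were therefore present in promoters of genes that had almost no counts as well as in those of genes that were on. The 4 promoters here, from 160 bases before to 10 after the start, stand for both kinds: TYR (off) and TYRP1 (trace), and GPNMB and MC1R (on). Capitals mark CATGTG or its reverse complement CACATG. They lie at chr11:89177715-89177884 (TYR, plus strand), chr9:12693225-12693394 (TYRP1, plus strand), chr7:23246615-23246784 (GPNMB, plus strand) and chr16:89918702-89918871 (MC1R, plus strand).
TYR: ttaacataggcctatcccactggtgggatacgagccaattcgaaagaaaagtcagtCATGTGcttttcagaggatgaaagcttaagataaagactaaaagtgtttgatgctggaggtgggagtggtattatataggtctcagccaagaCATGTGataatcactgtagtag
TYRP1: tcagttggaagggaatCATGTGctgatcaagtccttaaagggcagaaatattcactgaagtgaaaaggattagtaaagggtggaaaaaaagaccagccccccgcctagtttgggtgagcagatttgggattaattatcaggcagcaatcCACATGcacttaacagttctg
GPNMB: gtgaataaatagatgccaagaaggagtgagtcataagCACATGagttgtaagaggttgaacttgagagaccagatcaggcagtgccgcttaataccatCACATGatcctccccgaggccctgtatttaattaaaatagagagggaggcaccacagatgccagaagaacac
MC1R: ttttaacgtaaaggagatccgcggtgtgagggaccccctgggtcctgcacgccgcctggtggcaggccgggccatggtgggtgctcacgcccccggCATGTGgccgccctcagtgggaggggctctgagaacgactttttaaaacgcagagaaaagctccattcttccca
In TYR the marked letters start 104 and 12 bases before the transcription start, in TYRP1 144 and 11 bases, in GPNMB 123 and 62 bases and in MC1R 64 bases. A match describes the letters of this window and shows neither binding nor its absence.

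All 24 genes of the neural crest and invasive list were on. VIM had 2815, 2864 and 2838 CPM, TNC, a matrix glycoprotein, had 711 ± 10.3 CPM, and AXL, a receptor tyrosine kinase of invasive melanoma, had 466, 471 and 483 CPM. The AP-1 subunit FOSL1 had 338 ± 12.9 CPM, the progenitor filament nestin (NES) 214 ± 10.3 CPM, the lysyl oxidase LOXL2 188 ± 2.77 CPM and the nerve growth factor receptor NGFR 48.6 ± 2.39 CPM. Fibronectin (FN1) was the most variable of the larger ones, with 530, 644 and 485 CPM. In FN1 replicate 2 was the highest of the 3, as it was in COL1A1 (80.6, 102 and 94.4 CPM) and COL6A3 (54.3, 67.0 and 47.0 CPM). CDH2, the mesenchymal cadherin, had 126 ± 0.835 CPM, while CDH1, the epithelial cadherin, had 0, 1 and 0 counts.

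Markers of other cell types differed by list in how many were on. In the epithelial list 5 of 14 genes were on, led by the keratins KRT18 (585 ± 13.8 CPM) and KRT8 (49.1 ± 0.0925 CPM), while CDH1, TP63, GRHL2 and CLDN3 were off. In the immune list only LYZ, a lysozyme, was on, at 5.29 ± 0.189 CPM. PTPRC, CD3D, CD3E, CD2, MS4A1, CD79A and NKG7 were among the 8 that were off. All 12 fibroblast genes were on, from COL1A1 at 92.47 ± 11.03 CPM to FAP at 1.28 ± 0.243 CPM, a list whose collagens melanoma cells also make. Of 8 endothelial genes TIE1 (10.8 ± 0.642 CPM) and KDR (6.27 ± 0.351 CPM) were on, and PECAM1 and CDH5 were trace. None of 8 liver and gut genes was on, and ALB, VIL1 and CDX2 were off. In the pluripotency list ZFP42 (18.1 ± 1.46 CPM), LIN28B (14.2 ± 0.812 CPM) and SOX2 (12.05 ± 0.362 CPM) were on, while NANOG, DPPA4 and LIN28A were off. Of 10 neuron and glia genes 5 were on and 5 trace. TUBB3, a neuronal tubulin, had 482 ± 7.48 CPM, and SYP (3.40 ± 0.219 CPM), OLIG2 (3.19 ± 0.0999 CPM), SNAP25 (2.23 ± 0.341 CPM) and GAP43 (1.43 ± 0.154 CPM) were on, while MAP2, GFAP, RBFOX3, MBP and STMN2 were trace. At a limit of 5 CPM, 1 of the neuron and glia genes and 7 of the fibroblast genes were on.

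Transcripts of skeletal muscle were found in all 3 DMSO libraries, at differing levels. Of 28 muscle genes 17 were on (6 at a limit of 5 CPM), 11 trace and none off, including the myogenic factors MYF5 (2.07, 1.12 and 1.43 CPM) and MYOD1 (1.71, 0.998 and 1.26 CPM). MYH3, the embryonic myosin heavy chain, had 10.07, 18.01 and 42.10 CPM, and ACTC1, a sarcomeric actin, had 32.9, 40.8 and 68.7 CPM. Replicate 3 was the highest in MYH3 and ACTC1, whereas MYF5 and MYOD1 were highest in replicate 1. The 22 fibre genes summed to 112, 158 and 292 CPM, 0.0112%, 0.0159% and 0.0293% of the counts, and all 22 were highest in replicate 3. H19, a noncoding RNA of fetal tissues, had 228, 271 and 335 CPM, highest in replicate 3 as well. In bulk RNA, fewer cells of a type and less RNA per cell cannot be told apart.

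**Figure D2:**
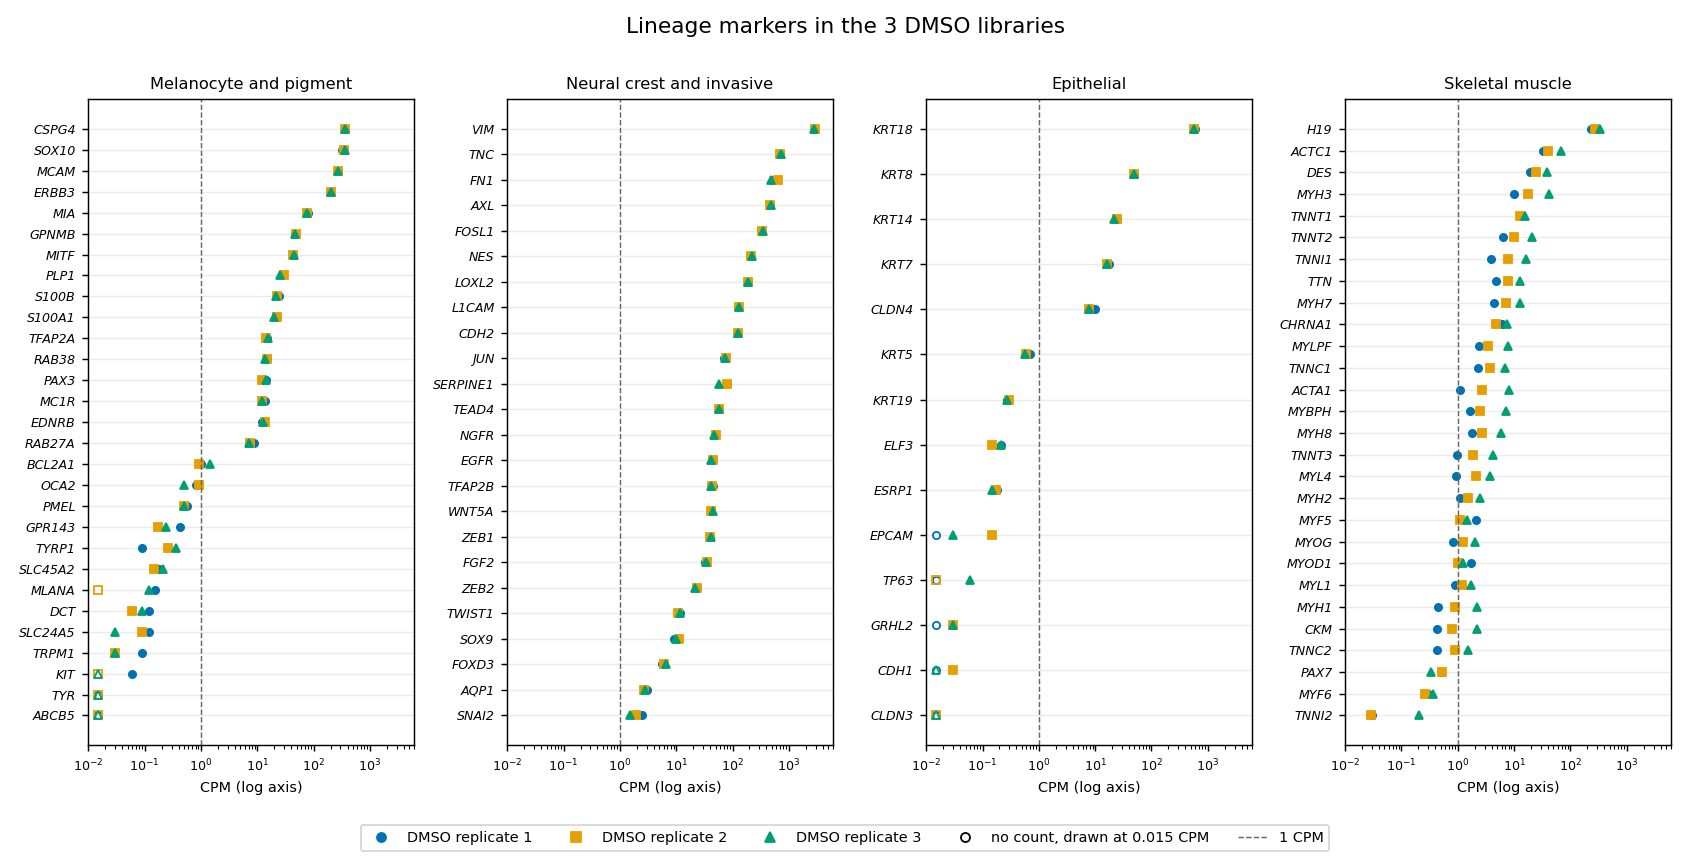
CPM (log axis) of each lineage marker in each of the 3 DMSO libraries, with genes ordered by mean and a dashed line at 1 CPM. Open symbols are libraries with no count, drawn at 0.015 CPM. The pigment genes from OCA2 (0.752 CPM) down lie left of the line, all 24 neural crest genes lie right of it, and the muscle genes are spread between libraries with replicate 3 mostly to the right.

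Tumour antigens were widely on. Cancer-testis genes are normally read in germ cells, and 17 of 19 were on. MAGEA4 had 954, 927 and 908 CPM, MAGEA3 234.6 ± 6.41 CPM, MAGEA6 149 ± 3.88 CPM, MAGEC2 138 ± 2.67 CPM and PRAME 156 ± 3.05 CPM. SSX1 and SSX2 were trace. Several of these genes have near-identical copies: CTAG1B and CTAG1A carried the same values in the table (40.8, 43.4 and 45.3 CPM), as did XAGE1B and XAGE1E, so the level of each copy is uncertain. In all, 48 entries with a mean of at least 10 counts had values identical to another entry.

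All 18 genes of antigen presentation were on, both classes included. CD74, the class II invariant chain, had 935, 911 and 905 CPM, and CIITA, the class II activator, had 34.0, 31.2 and 30.4 CPM. HLA-DRA had 181 ± 4.14 CPM and B2M, the light chain of class I, had 484 ± 21.0 CPM. Per kilobase, HLA-C (59.5 ± 4.58 CPM per kilobase) and HLA-B (58.6 ± 4.84) overlapped across libraries. The HLA class I genes are close paralogs, and reads can be divided between them.

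The kinase cascade that BRAF drives was on at every step. All 18 genes of the RAS, RAF, MEK and ERK core were on, with a median of 21.1 CPM per kilobase, against 8.97 CPM per kilobase over all on genes. BRAF had 10.04, 12.32 and 12.97 CPM, and ARAF had 68.9, 68.9 and 74.0 CPM. Per kilobase ARAF (28.7 ± 1.198 CPM per kilobase) was above BRAF (1.82 ± 0.238), with no overlap between libraries. HRAS was at 52.7 ± 1.48 CPM per kilobase and NRAS at 21.5 ± 0.660. MAP2K2 (58.2 ± 0.712 CPM per kilobase) was above MAP2K1 (35.4 ± 0.611), and MAPK3 was at 20.4 ± 1.44 CPM per kilobase.

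Genes that ERK is known to switch on, including its own brakes, were all on (21 of 21). CCND1, the cyclin that starts the cell cycle, had 615, 624 and 620 CPM, EPHA2 491 ± 19.8 CPM, PHLDA1 349 ± 14.5 CPM and HMGA2 243 ± 4.43 CPM. The feedback phosphatases DUSP4 and DUSP6 had 278 ± 3.76 and 145 ± 2.58 CPM, and the inhibitors SPRY4 and SPRY2 had 108 ± 1.65 and 91.8 ± 0.710 CPM. FOS (3.05 ± 0.257 CPM) and SPRY1 (3.40 ± 0.309 CPM) had the fewest counts of the list.

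Among 37 receptor tyrosine kinases 23 were on, and 5 were off: RET, ROR2, ERBB4, KIT and FLT3. EPHA2 and AXL had the most counts, followed by ERBB3, MET (196 ± 5.91 CPM), IGF1R (88.1 ± 2.93 CPM) and DDR1 (75.8 ± 2.67 CPM). Within the ERBB family per kilobase, ERBB3 (33.9 ± 0.421 CPM per kilobase) came before ERBB2 (10.4 ± 0.0442), EGFR (4.46 ± 0.141) and ERBB4, which was off. ALK, NTRK2, NTRK3, MERTK, FGFR2, FLT4, TEK and CSF1R were among the 9 at trace.

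Of 21 genes of the PI3K, AKT and mTOR pathway 20 were on, and PIK3CG, the catalytic subunit of blood cells, was off with 0, 1 and 0 counts. EIF4EBP1, the translation repressor that mTOR inactivates, had 179 ± 3.29 CPM, RHEB, the GTPase that activates mTOR, 156 ± 1.03 CPM, and MTOR itself 144 ± 1.57 CPM. PIK3CB was the largest catalytic subunit per kilobase (9.39 ± 0.203 CPM per kilobase), ahead of PIK3CD (5.16 ± 0.0220) and PIK3CA (2.13 ± 0.139). AKT1 (48.0 ± 0.243 CPM per kilobase) came before AKT2 (31.6 ± 0.333).

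Other pathways differed in which members were on. In Hippo signalling all 15 genes were on, with the coactivator WWTR1 (TAZ) at 438, 450 and 454 CPM, YAP1 at 128 ± 2.42 CPM and the targets CYR61 and CTGF at 160 ± 4.76 and 93.8 ± 0.861 CPM. In Wnt signalling CTNNB1 (beta-catenin) had 377 ± 3.29 CPM and the secreted inhibitor DKK1 209 ± 3.49 CPM, while the feedback targets AXIN2, NKD1 and RNF43 were trace and the ligand WNT3A was off. All 21 genes of the TGF-beta and BMP list were on, with the signal transducer SMAD3 at 106 ± 2.65 CPM, and per kilobase TGFB1 (27.4 ± 2.07 CPM per kilobase) was far above TGFB3 (0.865 ± 0.198) and TGFB2 (0.636 ± 0.0447), which overlapped. In the Notch list the receptor NOTCH2 was on at 244 ± 4.64 CPM, and the ligands DLL1, DLL4 and JAG2 were trace. All 12 NF-kB genes were on, with TNFRSF1A at 115 ± 2.55 CPM and the receptor TLR4 at 91.5 ± 1.60 CPM. In the JAK-STAT list 17 of 20 were on, with the shared receptor chain IL6ST at 119 ± 4.83 CPM, and STAT3 at 113, 112 and 116 CPM, while JAK3, STAT4 and SOCS1 were trace.

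Genes of the RB pathway and the cell cycle were on except CDKN2B, which was trace (22 of 23). CCNB1, the cyclin of mitosis, had 371 ± 11.7 CPM, CDK4 had 345, 332 and 324 CPM and CDK6 127 ± 1.98 CPM. Per kilobase CDK4 was at 161 ± 5.00 and CDK6 at 19.4 ± 0.303 CPM per kilobase. RB1 had 60.2 ± 2.19 CPM, and CDKN1A, a CDK inhibitor that stops the cycle, 174 ± 5.33 CPM. CDKN2A, which encodes the CDK4 inhibitor p16 and is often lost in melanoma, had 4.02, 4.25 and 5.56 CPM. Counts per gene do not show a mutation, so the state of the protein is unknown from these values. Among the BCL2 survival proteins MCL1 came first per kilobase (115 ± 4.44 CPM per kilobase), before BCL2L1 (41.2 ± 0.258), BCL2L2 (10.6 ± 0.166), BCL2 (1.48 ± 0.155) and BCL2A1 (1.09 ± 0.264), of which the last pair overlapped and changed places with merged exons as the length.

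The targets of the study's inhibitors were on in cells that had not met the inhibitors. CDC7 had 24.4, 22.7 and 22.6 CPM, and its activating partners DBF4 and DBF4B had 48.3 ± 0.430 and 22.6 ± 0.637 CPM. All 6 subunits of the MCM helicase, the CDC7 substrate that unwinds DNA, were on: MCM7 at 642, 638 and 630 CPM, MCM4 at 431 ± 3.66 CPM, MCM2 at 345 ± 1.90 CPM, MCM3 at 178 ± 2.19 CPM, MCM5 at 157 ± 5.48 CPM and MCM6 at 137 ± 1.16 CPM. Per kilobase they ran from 215 ± 2.01 CPM per kilobase in MCM7 to 36.6 ± 0.311 in MCM6, with no overlap between neighbours. DBF4 was at 12.4 ± 0.110 CPM per kilobase, and DBF4B (7.56 ± 0.213) and CDC7 (7.17 ± 0.315) overlapped.

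The 3 scaffolds that OF1 binds were on. BRPF1 had 48.4, 49.7 and 48.1 CPM, BRPF3 had 49.1, 46.1 and 47.4 CPM, and BRD1, also called BRPF2, had 28.3, 28.2 and 28.9 CPM. Per kilobase the order was BRPF1 (11.3 ± 0.192 CPM per kilobase), BRPF3 (7.86 ± 0.250) and BRD1 (6.38 ± 0.0873), without overlap. The acetyltransferases they hold were KAT6A (68.5 ± 2.11 CPM), KAT6B (28.03 ± 2.13 CPM) and KAT7 (70.9 ± 1.09 CPM), and the small subunits MEAF6, ING4 and ING5 had 52.8 ± 1.15, 14.4 ± 1.37 and 22.2 ± 0.217 CPM. KAT6A (7.96 ± 0.245 CPM per kilobase) came before KAT7 (7.36 ± 0.113), an order that turned with merged exons as the length (5.33 against 7.12).

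Of 14 targets of melanoma therapy, approved or tried, 7 were on. They included BRAF, MAP2K1 (121 ± 2.08 CPM), MAP2K2 (101 ± 1.23 CPM), the interferon receptor chains IFNAR1 (42.6 ± 2.74 CPM) and IFNAR2 (8.31 ± 0.732 CPM), and CD274, the checkpoint ligand PD-L1, at 14.3, 14.7 and 15.9 CPM. The checkpoint receptors of T cells were not on: CTLA4 (0.862 ± 0.0463 CPM) and LAG3 (0.327 ± 0.0809 CPM) were trace and PDCD1 (PD-1) had no count. IL2RB and PMEL were trace, and KIT and IL2RA were off.

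Of 24 surface proteins used or tried as antibody targets 16 were on, 4 trace and 4 off. CD44 (482 ± 7.84 CPM), TFRC (370 ± 6.35 CPM), CSPG4, MCAM, ERBB3, L1CAM (130 ± 2.37 CPM), CD276 (117 ± 2.33 CPM), SLC39A6 (99.5 ± 2.69 CPM), ALCAM (91.2 ± 2.20 CPM), NT5E (73.1 ± 3.57 CPM), ERBB2 (47.5 ± 0.201 CPM), CD47 (47.2 ± 2.91 CPM) and GPNMB were on. B4GALNT1, the synthase of gangliosides GM2 and GD2, was on at 37.4 ± 0.568 CPM, while ST8SIA1, the GD3 synthase that comes before GD2, was trace at 0.238 ± 0.0275 CPM. CD33 and MSLN were on at 4.68 ± 0.959 and 3.55 ± 0.253 CPM, MUC1, CEACAM1 and FOLR1 were trace, and CD38 and MS4A1 were among those off.

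**Figure D3:**
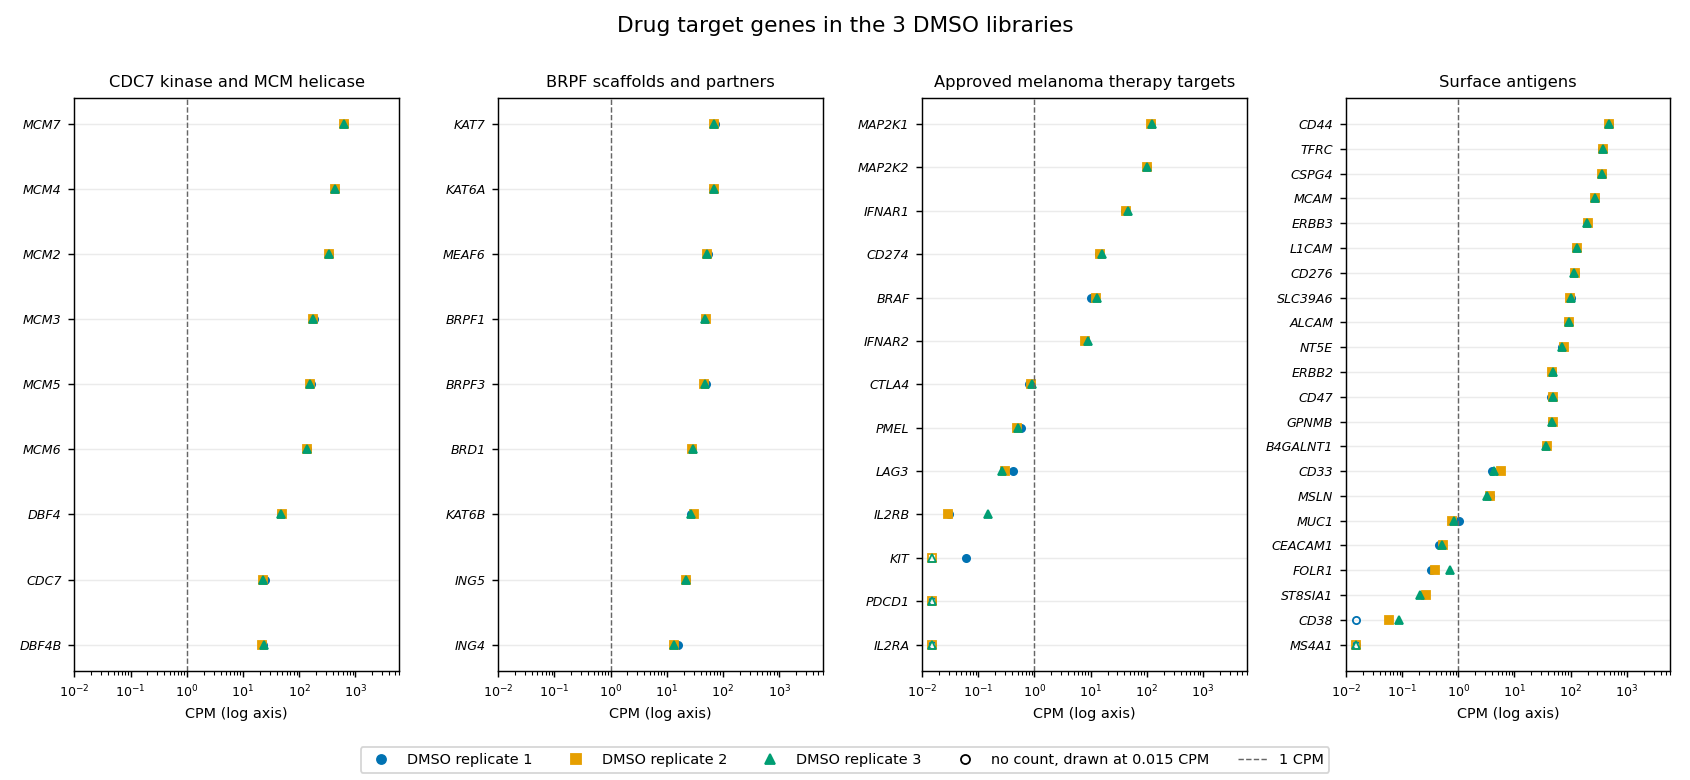
CPM (log axis) of drug target genes in each of the 3 DMSO libraries, in 4 lists ordered by mean, with a dashed line at 1 CPM and open symbols at 0.015 CPM for no count. Every CDC7, MCM and BRPF gene lies above 10 CPM. The melanoma therapy targets drawn, approved or tried, fall on both sides of the line, with some members of the last 2 lists not drawn.

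Of 29 other kinase targets 27 were on. Those with the most counts were PRKDC, the DNA-repair kinase (769 ± 12.3 CPM), AXL, CDK4, PLK1 (258 ± 1.97 CPM), AURKA (216 ± 1.05 CPM) and MET. Those of replication stress, ATR, CHEK1 and WEE1, had 61.2 ± 2.48, 76.9 ± 1.57 and 24.4 ± 1.29 CPM. CDK12, AKT1, CDK6, AURKB, IGF1R, MTOR, CDK9, SRC, CDK7, FGFR1, ERBB2, TTK, EGFR, ATM, PIK3CA, PDGFRB, KDR and PDGFRA were on at 5.21 to 144 CPM. ALK was trace at 0.505 ± 0.0498 CPM and BTK, a B cell kinase, was off.

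Of 20 chromatin targets 19 were on, and BRDT, the testis member of the BET family, had no count. DNMT1, which copies DNA methylation, had 488 ± 2.99 CPM, and the enzymes that add it anew, DNMT3B and DNMT3A, had 9.28 ± 0.747 and 8.31 ± 0.659 CPM. The histone deacetylases HDAC1, HDAC2, HDAC3 and HDAC6 had 302 ± 1.19, 172 ± 4.25, 77.2 ± 3.62 and 19.1 ± 0.390 CPM. Of the BET genes, BRD2 (43.9 ± 1.10 CPM per kilobase) came before BRD3 (6.95 ± 0.195). KDM1A (159 ± 6.99 CPM), PRMT5 (159 ± 1.94 CPM), KMT2A (107 ± 2.06 CPM), EZH2 (95.9 ± 3.50 CPM), MEN1 (82.9 ± 0.337 CPM), CREBBP (73.7 ± 1.02 CPM), EP300 (64.2 ± 1.11 CPM), DOT1L (56.5 ± 1.63 CPM) and EZH1 (23.7 ± 0.834 CPM) were also on.

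All 18 cytotoxic and all 12 survival targets were on. Beside the HSP90 pair, the tubulins TUBA1B (2162 ± 78.9 CPM) and TUBB (2014 ± 41.1 CPM) had the most counts, followed by PARP1 (587 ± 2.59 CPM), TOP2A (546, 544 and 556 CPM), RRM2 (459.2 ± 1.301 CPM), XPO1 (431 ± 1.26 CPM) and TOP1 (373 ± 13.3 CPM). TYMS, GART, RRM1, PSMB5, TOP2B, NAMPT, PARP2 and DHODH lay between 23.9 and 237 CPM. Of the survival targets MCL1 had 438, 451 and 473 CPM, BIRC5 (survivin) 150 ± 1.25 CPM, BCL2L1 107 ± 0.669 CPM and the death receptor TNFRSF10B 103 ± 0.299 CPM. BIRC2, MDM2, XIAP, MDM4, TNFRSF10A, FAS, BIRC3 and BCL2 lay between 7.87 and 83.0 CPM.

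The 3 DMSO libraries were close to each other. Over the 12973 on genes the median coefficient of variation (CV) was 3.80%, and 62.9% of them had a CV under 5%. The CV expected from counting error at the mean count had a median of 3.23%. The median CV fell with level, with 12.4% at 1 to 3 CPM, 4.41% at 10 to 30 CPM and 1.61% at 300 to 1000 CPM. The expected counting CV at these levels was 12.4%, 4.01% and 0.820%. A CV from 3 values is more often below than above the true CV, so these pairs of medians understate the spread beyond counting error. Above 1000 CPM it was 2.18%. The same genes had a median CV of 4.14% among the XL413 libraries, 4.75% among the OF1 libraries and 5.87% among the combination libraries, against 3.80% among the DMSO libraries, a comparison for which no test was run.

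Each pair of DMSO libraries differed by more than counting noise, so none is a copy of another. The chi-square per degree of freedom was 2.29 between replicates 2 and 3, 3.34 between 1 and 2 and 4.36 between 1 and 3, against up to 13.2 between libraries of another group. Among genes with a mean of at least 5 CPM, replicate 3 was over 1.5 times both others in 14 and under both by that factor in 3. Replicate 1 was so above in 3 and below in 10, and replicate 2 in 1 and 1.

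Muscle genes were 8 of the 14 that stood above in replicate 3. They were MYH3, MYH7, NEB, TNNI1, TNNT2, TTN, ACTC1 and DES, with TNNT2 at 6.38, 9.80 and 21.1 CPM and DES at 19.01, 24.17 and 38.5 CPM. The 15 interferon-stimulated genes, a list chosen after the values were seen, summed to 281, 245 and 221 CPM. In 12 of the 15 replicate 1 was the highest, as in ISG15 (14.7, 10.9 and 7.74 CPM), IFI6 (36.7, 26.5 and 21.8 CPM) and MX1 (15.6, 12.4 and 9.14 CPM). Of the 79 ribosomal protein genes 76 were highest in replicate 1, but by small amounts, with sums of 98800, 92940 and 93978 CPM. What sets the libraries apart was not tested.

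**Figure D4:**
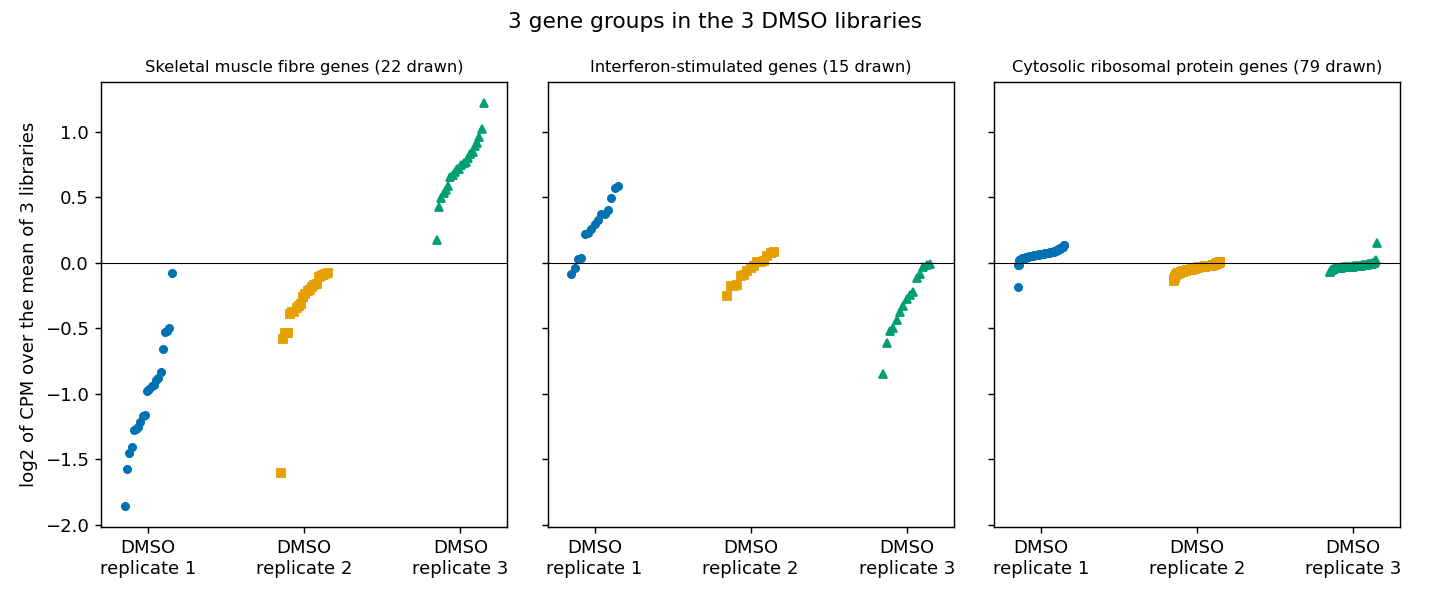
Log2 of the CPM of each gene in a library over its mean in the 3 DMSO libraries, for 22 skeletal muscle fibre genes, 15 interferon-stimulated genes and 79 cytosolic ribosomal protein genes, sorted within a library. All muscle points of replicate 3 lie above 0, most interferon points of replicate 1 lie above 0, and the ribosomal points stay near 0.

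A mean of at least 10 CPM was found in 9535 entries, on or not. Leaving out repeated names, date-like names and entries of the Y chromosome left 9521, of which 21 had a CV over 20% (0.221%). The 10 largest were SMN2, MYH3, NOMO3, TNNT2, TMEM160, ACTC1, DES, ISG15, C17orf89 and RNA45S5. SMN2, which differs little in sequence from SMN1, had 46.7, 0 and 10.5 CPM, while the sum of SMN1 and SMN2 was 202.5, 199.9 and 197.6 CPM. Likewise NOMO3 had 16.1, 93.9 and 117 CPM, while the 3 NOMO copies summed to 544, 560 and 562 CPM. In both families the copies share near-identical sequence and their sum varied less than the copy named, so the level of a copy is uncertain. How reads were assigned between copies was not tested. At the other end, the 10 genes of smallest CV were APPL2, MAT2A, ADH5, CT45A3, CT45A4, PPP2R2D, WAC, RAB35, GPCPD1 and PNISR, at 0.0318% to 0.0979%. CT45A3 and CT45A4 carried the same values in the table and are 1 measurement. MAT2A, which makes the methyl donor S-adenosylmethionine, had 448.2, 447.8 and 447.7 CPM. A CV this far under counting error is the low end of 9521 estimates from 3 values each.

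**Figure D5:**
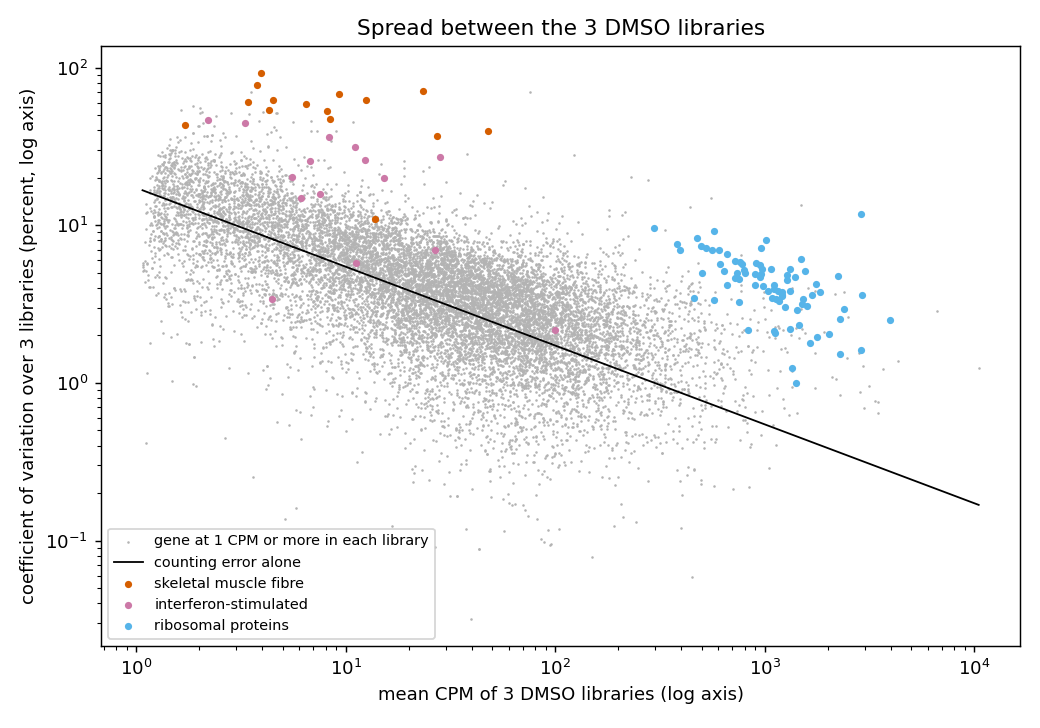
Coefficient of variation over the 3 DMSO libraries (percent, log axis) against mean CPM (log axis) for every gene that was on. The line is the CV expected from counting error at the mean count. Muscle fibre genes lie above most genes of their level, and ribosomal proteins, at the right, lie above the line, with RPS2 the highest at a CV of 11.7%.

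Whether the baseline genes differed among the 4 treatments was tested over all genes. With edgeR's quasi-likelihood F test for any difference, 1941 of 15353 genes tested passed at a Benjamini-Hochberg adjusted p of 0.05 (12.6%). Of the 458 list genes tested 110 passed (24.0%), in lists chosen with earlier results of these data known. The count over all genes changed when 1 library was left out. It was 1046 without DMSO replicate 2, 1248 without DMSO replicate 3 and 1132 without XL413 replicate 2. Without OF1 replicate 2 it was 1203, without combination replicate 2 it was 1175, and without combination replicate 1 it was 3102. The other removals gave 1419 to 2135. A fit with fewer libraries also has less power, so a lower count does not single out a library.

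Among all genes tested 12.6% passed with edgeR, and the lists around the inhibitors' targets were not tested against each other. None of the 9 BRPF genes passed with edgeR or with DESeq2, and 4 of the 9 had an unadjusted p under 0.05 with edgeR and 1 with DESeq2. With so few genes, none passing is not far from the share over all genes. Of the 9 CDC7 and MCM genes 5 passed. MCM3 averaged 218 ± 3.01 CPM in XL413, 171 ± 2.92 CPM in OF1 and 220 ± 9.85 CPM in the combination, against 178 ± 2.19 CPM in DMSO (SD, n = 3 each), with an adjusted p of 9.89e-06 by edgeR. CDC7 itself averaged 23.2 ± 1.14, 24.2 ± 0.631 and 23.5 ± 0.125 CPM in XL413, OF1 and the combination, against 23.3 ± 1.02 CPM in DMSO, with an adjusted p of 0.732 by edgeR.

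In the ERK output list 12 of 21 genes passed, and in the core of the cascade 1 of 18 (MAP2K2), against 12.6% of all genes tested. DUSP6 averaged 156 ± 0.206 CPM in XL413, 155 ± 2.29 CPM in OF1 and 169 ± 5.05 CPM in the combination, against 145 ± 2.58 CPM in DMSO, with an adjusted p of 0.00257 by edgeR. Of 18 antigen presentation genes 10 passed, and 5 without combination replicates 2 and 3. B2M averaged 567 ± 36.7 CPM in XL413, 503 ± 18.2 CPM in OF1 and 586 ± 29.2 CPM in the combination, against 484 ± 21.0 CPM in DMSO, with an adjusted p of 0.00494 by edgeR. Of 19 chromatin targets tested 8 passed, and 10 without combination replicates 2 and 3. The means of EP300, CREBBP, BRD3 and EZH2 were below DMSO in all 3 treatments, but the test does not say which treatment differed. In OF1 BRD3 averaged 38.9 ± 2.23 CPM, against 39.3 ± 1.10 CPM in DMSO. CREBBP averaged 71.4 ± 6.44 CPM in OF1, against 73.7 ± 1.02 CPM in DMSO. For BRD3 and CREBBP the difference between OF1 and DMSO was smaller than the SD in OF1. Those of DNMT1 and HDAC1 were above DMSO in XL413 and the combination and below it in OF1, and that of BRD2 was below DMSO in XL413 and the combination and above it in OF1 (214.4 ± 2.37 CPM in OF1, against 213.0 ± 5.35 CPM in DMSO). EP300, an acetyltransferase, averaged 54.2 ± 3.06 CPM in XL413, 60 ± 2.51 CPM in OF1 and 55.8 ± 3.71 CPM in the combination, against 64.2 ± 1.11 CPM in DMSO, with an adjusted p of 0.0216 by edgeR.

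In the melanocyte list 2 of 21 genes passed and in the neural crest list 7 of 24, against 12.6% of all genes tested. The melanocyte list was thus no richer in passing genes than the whole. MITF averaged 38.0 ± 1.47 CPM in XL413, 38.8 ± 3.03 CPM in OF1 and 34.4 ± 1.46 CPM in the combination, against 43.4 ± 0.851 CPM in DMSO, with an adjusted p of 0.00803 by edgeR. AXL averaged 365 ± 17.7 CPM in XL413, 445 ± 19.9 CPM in OF1 and 387 ± 18.4 CPM in the combination, against 473 ± 8.54 CPM in DMSO, with an adjusted p of 0.000226 by edgeR. In the fibroblast list 7 of 12 passed, and 4 without combination replicates 2 and 3. In the muscle list 16 of 28 passed, and none without those 2 libraries, where 3 had an unadjusted p under 0.05. Within DMSO alone the summed muscle fibre level was 112 CPM in replicate 1 and 292 CPM in replicate 3, and the part of this spread in the calls was not tested.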

How the data were processed

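The deposited table of all 12 libraries holds expected counts per gene, which the authors made with RSEM 1.2.15 and Bowtie2 2.1.0 on hg38 per the submitters' processing notes. Neither the annotation nor the read length is given in the sources used here, nor whether counting used the strand. Of the DMSO values 10.7% were not whole (tolerance 1e-09), and all were rounded. CPM is the rounded count over the TMM library size (TMM factors of the DMSO libraries 0.9987 to 1.007). The 12 libraries held 30499559 to 36062138 counts, and the limits given for a count of 0 cover counting error only. Of 26475 entries 28 carried date-like names, and 24412 had a transcript length, the median spliced length of the best-ranked GENCODE v29 transcripts by APPRIS. RefSeq symbols matched 25180 entries. No entry was matched to the class of genes of the mitochondrial genome, so no share of counts is given for them.

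Any difference among the 4 treatments was tested over all genes with edgeR 4.0.16 (glmQLFit and glmQLFTest, all 12 libraries, no covariate, filterByExpr), in R 4.3.3 with limma 3.58.1, with DESeq2 1.42.0 as an alternative. The code was tested on simulated data. Genes were named by a rule: the 20 entries of largest mean CPM, the 10 of largest CPM per kilobase, up to 6 members of largest mean CPM and the off members of each list, every drug target, the 10 of largest and of smallest CV at a mean of at least 10 CPM, up to 4 members per list that differed among treatments, and members next to the limits. Other genes were named after their values were seen, among them the departing genes, the interferon-stimulated genes and some list members. Members and lists were chosen with earlier results of these data known. Some list members are not reported here.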

Additional observations from a re-analysis of the deposited data

How the results depend on the processing

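The number of on genes (12973) was 13841 at a limit of 0.5 CPM, 10701 at 5 CPM and 12981 with plain totals. At 5 CPM the members on were 6 of 28 in the muscle list, 7 of 12 in the fibroblast list and 1 of 10 in the neuron and glia list. The share of the largest 100 entries was 31.5% when counts were divided by transcript length, and 18.8% to 18.9% when each library was left out in turn. The median CV was 2.91% among genes of at least 10 CPM and 3.802% to 3.805% with other scaling. With each library left out it was 2.75% to 3.38%. A median of CVs from 2 values runs lower than one from 3 values, so that range cannot be compared directly with the others. The count of genes that differed among the treatments was 1046 to 3102 with each library left out, and 1798 without both combination replicates 2 and 3. It was 2342 with DESeq2, 2208 with no filter on low counts and 1860 with the replicate block. Of 18 pairs of libraries that share a number 1 had a correlation of deviations over 0.1, with a range of -0.161 to 0.199. The labels do not say what a shared number means. These correlations cannot show it, since each deviation is taken from a mean of only 3 libraries. Of 21 gene families 17 kept their order per kilobase with merged exons as the length, an alternative chosen after seeing the data. The cause of each shift was not tested. Depth limits calls near 0.0880 to 0.0899 CPM.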
